A study of Mus musculus with 10 samples.

Results

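The 39 genes described here copy DNA in S phase, supply its nucleotides and mend or guard the copied strands. They were chosen by symbol for their roles in DNA replication and repair. The rule itself uses no difference between the groups, but the members were chosen with earlier results of these data known. An array probe was paired with 38 of the 39. Rrm2, the small subunit of ribonucleotide reductase, was not analysed here. The 38 genes stand among 19096 genes with a paired probe, of which 15586 were measured well enough to be tested, the 38 included.

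The data came from whole lungs or whole lung tumours of mice labelled as the B6.129 strain at 13 months of age, with 1 one-colour microarray per sample. WT denotes lungs of 5 Lkb1f/f mice, which carry the floxed Lkb1 allele without a recombinase. SCC denotes lung tumours of 5 CCSPiCreLkb1f/f mice, in which an iCre under the CCSP promoter of airway club cells, active also in basal cells of the proximal airway, deletes Lkb1 (Stk11), a tumour suppressor kinase. Both groups therefore share the floxed allele and differ in the transgene and in the tumour, and both sexes were included. The comparison asked which genes differ between a lung squamous cell carcinoma that forms without Lkb1 and lung that keeps it. Stk11 itself had no paired probe and was not analysed here.

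Cells prepare each origin of replication in G1 by loading the MCM helicase onto DNA with the origin recognition complex, Cdc6 and Cdt1, a step named licensing. In S phase Cdc45 and the GINS complex join the helicase and switch it on, polymerases copy both strands, and the sliding clamp, its loader, a flap endonuclease and a ligase finish the lagging strand. Many of these genes are transcribed around the start of S phase under E2F transcription factors, and their transcripts are low in resting tissue such as adult lung. Repair and checkpoint proteins such as Brca1, Fancd2 and Chek1 stabilise and rebuild forks that stall.

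Levels are log2 processed signals after quantile normalization, in which a difference of 1 is a 2-fold change, and SCC differences are always SCC minus WT. A level cannot be compared between genes, because probes differ in brightness. A gene was called when limma gave an adjusted p below 0.05 and the groups differed at least 2-fold. Between 71.0% and 74.5% of probes were well above background on 9 arrays, and 90.2% on SCC array 5. The arrays correlated at 0.986 to 0.993 within WT and at 0.906 to 0.990 within SCC. SCC array 2 stood apart, because it correlated with the WT arrays at 0.940 to 0.946 and the other 4 SCC arrays did so at only 0.850 to 0.905. SCC array 5 differed in another way, since in limma's array weights it had the lowest weight, 0.125, next to 0.135 for SCC array 2 and at least 0.947 for the other 8 arrays. Counts and medians over the 38 genes, their roles and the further lists are therefore also given without SCC array 2. Slide 1 held WT arrays 1 to 4, slide 2 held WT array 5 with SCC arrays 1 to 3, and slide 3 held SCC arrays 4 and 5. Of 8 squamous epithelium markers, 7 were called higher in SCC, in accord with the tumour label. Their mean level ranged from 5.28 to 5.70 on the WT arrays and from 11.93 to 14.47 on the SCC arrays.

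Replication and repair genes were higher in SCC for most of the set. Of the 38 genes, 21 were called higher (55.3%), 0 were called lower and 17 were not called. Over all genes tested, 11.6% were called higher and 13.4% lower. The largest difference belonged to Exo1 (5.28-fold), and the median over the 38 genes was 1.08 (2.11-fold), against −0.04 over all genes tested. A positive difference was found for 35 of the 38, and 31 passed the adjusted p alone, 30 of them higher and 1, Orc6, lower. Over all genes tested, 25.5% passed it in the higher direction and 28.4% in the lower. For 24 genes every SCC array lay above every WT array, which held for 18.9% of all genes tested. In an exact two-sided permutation test of each gene over the 10 arrays, 25 genes reached 0.00794, the smallest p that 252 splits allow. That p is reached where the groups do not overlap. The 25 are therefore those 24 genes and Orc6, which was lower in SCC, and the test adds nothing to that count. The SE of a difference ran from 0.09 to 0.44. In bulk tissue such as this, fewer cells of a type and less RNA per cell cannot be told apart.

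**Figure D1:**
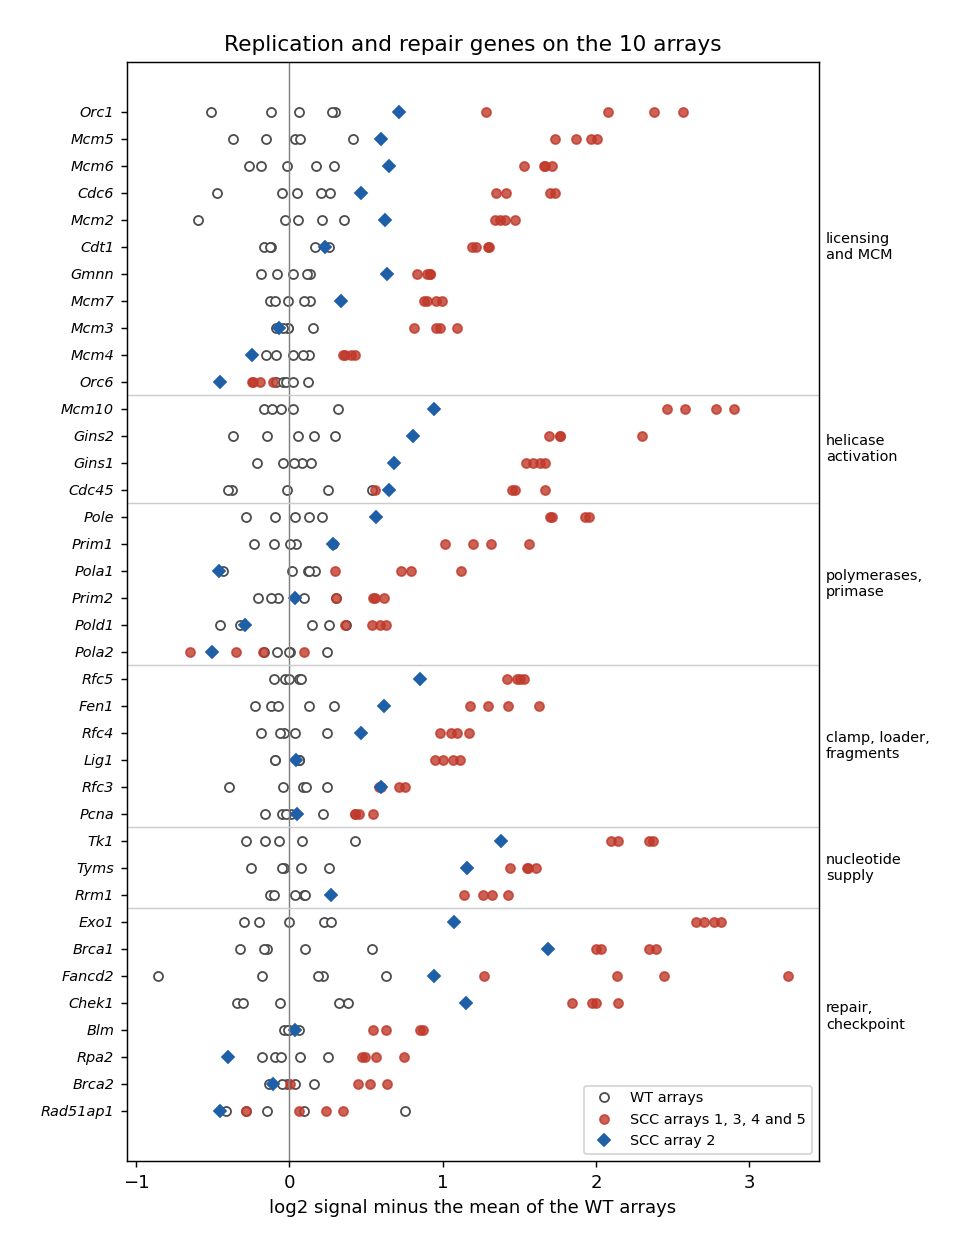
The level of each of the 38 genes on the 10 arrays, as log2 signal minus the mean of the WT arrays (x axis), with genes on the y axis grouped by role. Open circles are WT arrays, filled circles SCC arrays 1, 3, 4 and 5, and diamonds SCC array 2, which was the lowest SCC array for 35 of the 38 genes.

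Origin licensing genes were mostly higher in SCC. Of 11 genes, 6 were called higher and 5 were not called, with a median difference of 1.05. Orc1, the ATPase subunit of the origin recognition complex, read 5.19, 5.17, 4.96, 4.77 and 4.38 on WT arrays 1 to 5 and 6.97, 5.61, 7.46, 7.27 and 6.17 on SCC arrays 1 to 5. All SCC arrays exceeded all WT arrays, with SCC array 2 closest to WT, and the signal was well above background on 4 of the 5 WT arrays and all SCC arrays. The difference was 1.80 ± 0.35 (SE, n = 5 and 5, limma adjusted p = 0.00217), a 3.49-fold rise. With normexp background correction it was 0.76, under 2-fold, and the call was lost. With slide as a fixed term it was 2.30, and the call was lost too (limma adjusted p = 0.0625). Mcm5, a subunit of the MCM helicase, read 10.95, 10.57, 10.17, 10.60 and 10.38 in WT and 12.26, 11.13, 12.54, 12.50 and 12.40 in SCC. Again the groups did not overlap, and SCC array 2 sat just above the highest WT array. Mcm5 rose by 1.63 ± 0.27 (limma adjusted p = 0.000941). Mcm6 and Mcm2, helicase subunits like Mcm5, rose by 1.44 and 1.24. Cdc6, the ATPase that works with the origin recognition complex, rose by 1.33, and no gene of these 3 overlapped between groups. With normexp Cdc6 gave 0.88, under 2-fold. Cdt1, which brings the helicase to the origin, rose by 1.05, and on SCC array 2 it lay within the WT range. Without SCC array 1 or without SCC array 3 the difference of Cdt1 was 0.99, under 2-fold.

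Members of the same helicase differed in size of change. Mcm7 read 12.30, 12.03, 12.07, 12.26 and 12.15 in WT and 13.04, 12.50, 13.11, 13.16 and 13.06 in SCC, without overlap. Its difference of 0.81 ± 0.14 (limma adjusted p = 0.000895) was under 2-fold, so it was not called. Mcm3 read 9.26, 9.10, 9.10, 9.02 and 9.07 in WT against 9.92, 9.04, 10.09, 10.07 and 10.20 in SCC. SCC array 2 fell inside the WT range and the other SCC arrays lay above it, for a difference of 0.75 ± 0.21 (limma adjusted p = 0.0127). Mcm4 read 13.18, 12.96, 12.90, 13.14 and 13.08 in WT and 13.40, 12.81, 13.48, 13.41 and 13.45 in SCC. Array 2 of SCC was below all WT arrays while the other 4 were above them, and the difference of 0.26 ± 0.14 did not pass (limma adjusted p = 0.150). Without SCC array 2 it was 0.38 and passed (limma adjusted p = 0.00262), and with slide as a fixed term it was 0.15. The 6 helicase subunits thus ranged from 0.26 for Mcm4 to 1.63 for Mcm5, and whether they differ from each other was not tested.

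The inhibitor of licensing and the small origin subunit gave smaller differences. Gmnn, or geminin, which binds Cdt1 and blocks reloading, read 12.06, 12.17, 12.38, 12.27 and 12.36 in WT and 13.17, 12.89, 13.16, 13.08 and 13.15 in SCC. The groups did not overlap and the SCC arrays were close together, with a difference of 0.84 ± 0.10 (limma adjusted p = 0.000107), under 2-fold. Orc6, the smallest origin recognition subunit, went the other way. It read 11.85, 11.90, 11.92, 11.96 and 12.06 in WT and 11.83, 11.49, 11.70, 11.75 and 11.70 in SCC. Every SCC array was below every WT array, SCC array 1 by the least. The difference of −0.25 ± 0.09 (limma adjusted p = 0.0423) was far under 2-fold. It passed the adjusted p with all arrays, and in 12 of the 24 alternatives run it did not, with an adjusted p of up to 0.170 (limma, slide as a fixed term).

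Stretches before the annotated starts of 7 of these genes are shown because they carry letters that E2F or NF-Y factors are known to bind. E2F matches were TTTCCCGC, TTTCGCGC, TTTGCCGC or TTTGGCGC and the NF-Y match was CCAAT, on either strand. The sequences are from RefSeq (GRCm38.p6), run 5′ to 3′ on the gene's strand, end before the start site, and have the matches in capitals. In Mcm5 and in the first block of Mcm6, E2F matches on opposite strands overlap. The coordinates, in the same order, are chr4:108579397-108579453 (plus strand), chr8:75109326-75109397 (plus), chr1:128359715-128359845 (minus), chr11:98907983-98908050 (plus), chr5:138172011-138172078 (minus), chr2:5012792-5012919 (minus) and chr8:85299548-85299612 (plus).
Orc1: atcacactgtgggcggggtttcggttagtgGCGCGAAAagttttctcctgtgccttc
Mcm5: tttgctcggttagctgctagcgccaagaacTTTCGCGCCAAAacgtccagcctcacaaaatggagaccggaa
Mcm6: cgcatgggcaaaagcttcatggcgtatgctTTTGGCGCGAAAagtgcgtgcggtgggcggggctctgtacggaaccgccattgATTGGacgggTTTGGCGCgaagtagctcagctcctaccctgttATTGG
Cdc6: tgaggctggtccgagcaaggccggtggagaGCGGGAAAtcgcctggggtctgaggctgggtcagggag
Mcm7: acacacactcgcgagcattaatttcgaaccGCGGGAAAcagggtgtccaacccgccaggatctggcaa
Mcm10: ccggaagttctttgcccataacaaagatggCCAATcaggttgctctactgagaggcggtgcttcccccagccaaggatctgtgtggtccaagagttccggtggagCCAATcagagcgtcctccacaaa
Orc6: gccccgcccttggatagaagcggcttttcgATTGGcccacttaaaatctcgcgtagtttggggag

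Mcm10 and Orc6 are shown because their windows hold no E2F match, although one had a large rise and the other was lower in SCC. The first 4 sequences belong to genes called higher, and Mcm7 to a gene that was higher but under 2-fold. A match in these letters is a description and not a measured binding site. Windows of 250 bases before to 50 bases after the start were searched for the 30 of 38 genes that had one. An E2F match was present in 12 of 30 (40.0%), against 704 of 27025 genes (2.6%) with a window in all. That set is wider than the 19096 genes with a paired probe, so it also holds genes not measured here. Among the called genes 5 of 16 had one (31.2%), and among those not called 7 of 14 (50%). CCAAT was present in 18 of 30 (60.0%), against 41.1% of all genes. The CHR letters of late cell cycle promoters, TTTGAA or TTCGAA, were present in 5 of 30 (16.7%), against 21.7% of all genes. Median G and C content was 57.0% in the windows of the 30 genes and 53.3% in all.

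All 4 genes that activate the helicase were called higher. With slide as a fixed term, Gins2 alone of them kept the call. Mcm10, which is needed to start unwinding, read 8.58, 8.21, 8.10, 8.15 and 8.29 in WT and 10.73, 9.21, 11.04, 11.16 and 10.84 in SCC. The groups did not overlap, SCC array 2 was lowest of its group, and the difference was 2.33 ± 0.34 (limma adjusted p = 0.000391). Gins2, a GINS subunit, read 7.77, 7.54, 7.33, 7.64 and 7.11 in WT and 9.17, 8.28, 9.24, 9.24 and 9.78 in SCC. SCC array 5 was highest and SCC array 2 lowest of the group, still above all WT arrays, for a rise of 1.66 ± 0.25 (limma adjusted p = 0.000502). Cdc45, the helicase cofactor, read 6.80, 6.26, 5.90, 6.52 and 5.87 in WT and 7.74, 6.92, 7.94, 7.72 and 6.83 in SCC. SCC arrays 2 and 5 were barely above WT array 1, and the rise was 1.16 ± 0.27 (limma adjusted p = 0.00609), the largest adjusted p among the called genes. With normexp it was 0.62, under 2-fold. Gins1, also a GINS subunit, rose by 1.42 without overlap.

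Of the 6 polymerase and primase genes 2 were called higher. Pole, the catalytic subunit of the leading strand polymerase epsilon, read 8.82, 8.65, 8.33, 8.73 and 8.51 in WT and 10.32, 9.17, 10.56, 10.54 and 10.31 in SCC. The groups were apart and the difference was 1.57 ± 0.25 (limma adjusted p = 0.000756). Prim1, the catalytic primase subunit, read 10.84, 10.46, 10.32, 10.60 and 10.56 in WT against 11.87, 10.84, 11.76, 12.12 and 11.57 in SCC. On SCC array 2 the level was barely above that on WT array 1, and the rise was 1.08 ± 0.22 (limma adjusted p = 0.00294). Without SCC array 4 it was 0.95, under 2-fold.

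The other 4 genes of this group were not called. Pola1, the catalytic subunit of polymerase alpha, read 9.44, 9.49, 9.34, 9.45 and 8.89 in WT and 10.05, 8.86, 10.44, 9.62 and 10.11 in SCC. SCC array 2 and WT array 5 were both low, and the difference of 0.49 ± 0.27 did not pass (limma adjusted p = 0.158). Without SCC array 2 it was 0.73 and passed (limma adjusted p = 0.00765), and with slide as a fixed term it was 0.89. Prim2, the large primase subunit, read 7.46, 7.30, 7.16, 7.68 and 7.25 in WT and 7.99, 7.41, 7.91, 7.93 and 7.67 in SCC. The groups overlapped on SCC arrays 2 and 5, with a difference of 0.41 ± 0.14 (limma adjusted p = 0.0371), under 2-fold. Pold1, the catalytic subunit of polymerase delta, read 11.87, 11.18, 11.05, 11.65 and 11.76 in WT and 12.04, 11.21, 12.10, 12.13 and 11.86 in SCC. SCC arrays 2 and 5 lay within the WT range and the difference was 0.37 ± 0.22 (limma adjusted p = 0.196). It came to 0.025 with slide as a fixed term and 0.66 with array weights. Pola2, the B subunit of polymerase alpha, read 8.22, 7.89, 7.81, 7.98 and 7.97 in WT and 7.80, 7.47, 8.07, 7.63 and 7.33 in SCC. SCC array 3 lay within the WT range and the other SCC arrays were below it. The difference of −0.32 ± 0.15 did not pass (limma adjusted p = 0.0999). It was −0.17 with 75th percentile scaling and −0.20 with slide as a fixed term.

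The clamp, clamp loader and Okazaki fragment genes were all higher in SCC by the adjusted p, and 2 of 6 reached 2-fold. With slide as a fixed term, Lig1 and Pcna no longer passed the adjusted p. Without SCC array 2, Lig1 and Rfc4 were called as well, which made 4 of 6, at 1.03 and 1.07. Rfc5, a small subunit of the clamp loader, read 10.77, 10.67, 10.60, 10.78 and 10.70 in WT and 12.12, 11.56, 12.23, 12.19 and 12.21 in SCC. The groups were well apart, and the difference was 1.36 ± 0.14 (limma adjusted p = 4.79e-05). Fen1, the flap endonuclease, read 8.79, 9.04, 8.83, 9.20 and 8.68 in WT and 10.09, 9.52, 10.54, 10.20 and 10.34 in SCC. No arrays overlapped and Fen1 rose by 1.23 ± 0.19 (limma adjusted p = 0.000539).

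Of the 4 genes of this group under 2-fold, Rfc4 and Rfc3 did not overlap between the groups, and Lig1 and Pcna did. Rfc4, also of the clamp loader, read 10.02, 10.09, 9.99, 10.30 and 9.87 in WT and 11.22, 10.52, 11.15, 11.10 and 11.03 in SCC, a difference of 0.95 ± 0.14 (limma adjusted p = 0.000525) without overlap. Lig1, the ligase that joins Okazaki fragments, read 11.84, 11.68, 11.69, 11.84 and 11.84 in WT and 12.89, 11.82, 12.78, 12.84 and 12.73 in SCC. SCC array 2 was at WT level while the other SCC arrays were above it, giving 0.83 ± 0.20 (limma adjusted p = 0.00605). Rfc3 read 8.60, 8.44, 8.46, 8.31 and 7.96 in WT and 8.95, 8.96, 9.11, 8.94 and 9.07 in SCC, a difference of 0.65 ± 0.12 (limma adjusted p = 0.0018). For this clamp loader subunit SCC array 2 was not lowest, and the groups did not overlap. Pcna, the sliding clamp, read 13.54, 13.33, 13.27, 13.30 and 13.16 in WT and 13.75, 13.37, 13.87, 13.77 and 13.75 in SCC. SCC array 2 lay within the WT range, and the difference was 0.38 ± 0.12 (limma adjusted p = 0.0208).

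Nucleotide supply genes were called higher in all 3 cases. Tk1, the cytosolic thymidine kinase, read 9.63, 9.14, 8.92, 9.29 and 9.05 in WT and 11.30, 10.58, 11.55, 11.58 and 11.35 in SCC. All SCC arrays were clearly above all WT arrays and the rise was 2.07 ± 0.21 (limma adjusted p = 4.91e-05). Tyms, thymidylate synthase, read 10.81, 10.52, 10.50, 10.62 and 10.30 in WT and 12.10, 11.71, 11.99, 12.16 and 12.10 in SCC. Here SCC array 2 was lowest but close to the rest of its group, and the rise of 1.46 ± 0.12 had the smallest adjusted p of the 38 genes (limma, 1.96e-05). Rrm1, the large subunit of ribonucleotide reductase, read 11.58, 11.52, 11.36, 11.58 and 11.38 in WT and 12.62, 11.75, 12.80, 12.90 and 12.75 in SCC. The SCC array closest to WT was array 2, and the rise was 1.08 ± 0.20 (limma adjusted p = 0.00181). Without SCC array 4 it came to 0.998, just under 2-fold.

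Repair and checkpoint genes split evenly, with 4 of 8 called. Exo1, an exonuclease of end resection and mismatch repair, read 7.52, 7.29, 7.10, 7.57 and 6.998 in WT and 9.99, 8.37, 10.06, 10.11 and 9.94 in SCC. The groups were apart and 4 SCC arrays were close together, for a rise of 2.40 ± 0.32 (limma adjusted p = 0.000262). Brca1, a recombination protein that recruits the machinery of strand exchange, read 7.55, 6.86, 6.84, 7.10 and 6.68 in WT and 9.04, 8.69, 9.39, 9.002 and 9.35 in SCC. On SCC array 2 the level was nearly as high as on the others, and the rise was 2.09 ± 0.19 (limma adjusted p = 2.88e-05). Fancd2, the Fanconi protein that is ubiquitinated at stalled forks, rose by 2.01 ± 0.44. Its signal was well above background on only 1 of the 5 WT arrays and on all SCC arrays, and with normexp the difference was 0.57, under 2-fold. Chek1, the replication checkpoint kinase, rose by 1.82 ± 0.22, without overlap, and by 1.06 with normexp.

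Of the repair genes that were not called, Blm came closest to the others. Blm, a helicase of recombination intermediates, read 8.34, 8.28, 8.27, 8.24 and 8.27 in WT and 8.91, 8.32, 9.15, 9.13 and 8.82 in SCC, with SCC array 2 within the narrow WT range. The difference was 0.59 ± 0.15 (limma adjusted p = 0.010). Rpa2, a subunit of the protein that coats bare strands, read 9.58, 9.74, 9.49, 9.92 and 9.62 in WT and 10.16, 9.27, 10.42, 10.23 and 10.14 in SCC. SCC array 2 was below every WT array and the other SCC arrays above them, for 0.38 ± 0.20 (limma adjusted p = 0.152). Brca2, a mediator of homologous recombination, read 8.45, 8.42, 8.34, 8.51 and 8.63 in WT and 9.11, 8.36, 8.92, 8.996 and 8.47 in SCC, with SCC arrays 2 and 5 inside the WT range. Its difference was 0.30 ± 0.16 (limma adjusted p = 0.134). With array weights it was 0.57 and passed (limma adjusted p = 0.000315), and it was 0.18 with normexp and 0.17 with slide as a fixed term. Rad51ap1, an accessory factor of homologous recombination, read 8.47, 8.10, 7.97, 9.14 and 8.24 in WT and 8.45, 7.93, 8.62, 8.73 and 8.10 in SCC. The groups overlapped, with SCC array 2 just below the lowest WT array, and the difference of −0.02 ± 0.24 (limma adjusted p = 0.959) was the smallest in size of the 38.

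**Figure D2:**
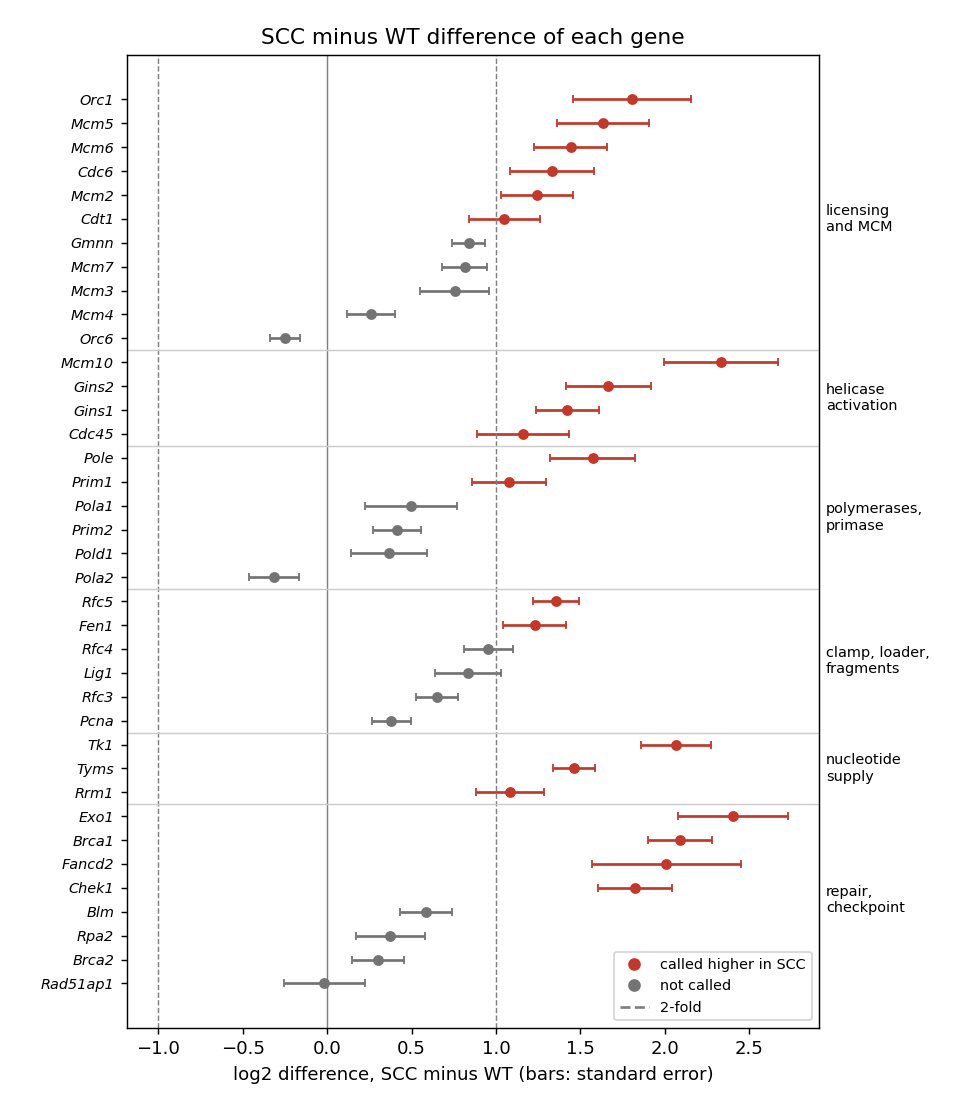
The SCC minus WT difference of each gene on the log2 scale (x axis) with its SE as bars, for 5 arrays per group, grouped by role. The 21 called genes lie right of the dashed 2-fold line at 1, from Cdt1 at 1.05 to Exo1 at 2.40, and Orc6, Pola2 and Rad51ap1 lie below 0.

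The tumours were not alike. SCC array 2 was the lowest SCC array for 35 of the 38 genes, and its median distance from the WT mean was 0.52, against 1.28 for the mean of the other 4. It lay above every WT array for 24 genes, within or below the WT range for the other 14, and below every WT array for 6, namely Mcm4, Orc6, Pola1, Pola2, Rpa2 and Rad51ap1. SCC arrays 1, 3, 4 and 5 all exceeded every WT array for 32 genes, which held for 27.9% of all genes tested. Among the 21 called genes the difference on SCC array 2 was between 18.7% (Cdt1) and 77.1% (Brca1) of that on the other SCC arrays, with a median of 41.4%. Counted with its sign, the difference was below that of the other 4 for every one of the 38 genes, and for Orc6 and Pola2 it was further below 0. By role, the median distance of SCC array 2 from WT was 1.16 for nucleotide supply and 0.74 for helicase activation, and −0.13 for the polymerases and primase. With that array left out, 23 genes were called, with Lig1 and Rfc4 added, and the median difference was 1.28. With both SCC arrays 2 and 5 left out, 23 were called, and the median was 1.33. Without array 2 alone, 13.1% of all genes tested were called higher, and Rpa2, at 0.38 with all arrays, differed by 0.57. By role, 6 of 11 licensing, 4 of 4 activation, 2 of 6 polymerase and primase, 4 of 6 clamp group, 3 of 3 nucleotide and 4 of 8 repair genes were then called, with medians of 1.25, 1.74, 0.63, 1.05, 1.54 and 1.36. The median SD over the 5 SCC arrays was 0.40, against 0.19 over the WT arrays and 0.12 over SCC arrays 1, 3, 4 and 5. Among the WT arrays the spread also had an order, since WT array 1 was highest for 23 genes and WT array 3 lowest for 19.

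**Figure D3:**
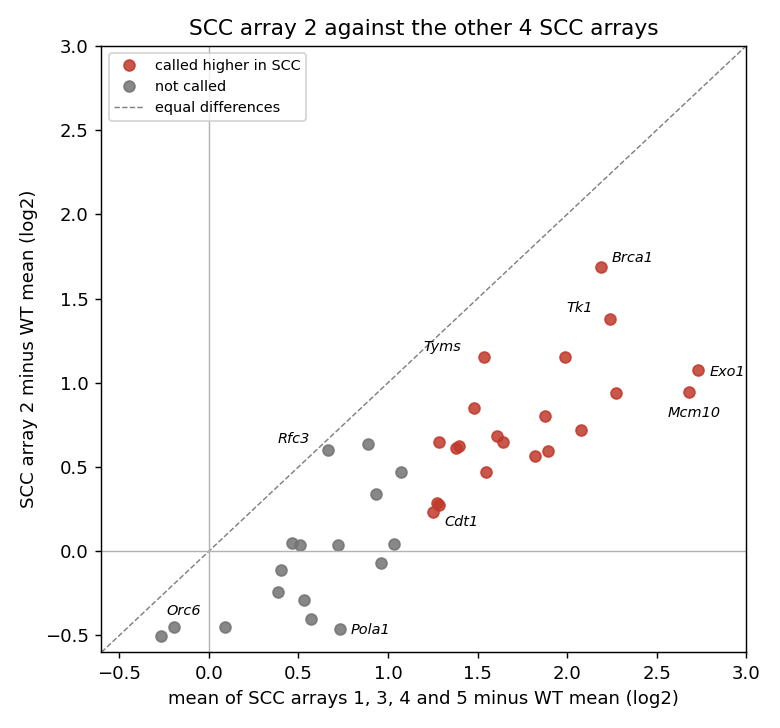
Each point is a gene, with the mean of SCC arrays 1, 3, 4 and 5 minus the WT mean on the x axis and SCC array 2 minus the WT mean on the y axis, both log2. 0 of the 38 points lie above the dashed line of equal differences, with Rfc3 closest to it and Exo1 and Mcm10 far below it.

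Markers of other cell types moved with the same arrays. On SCC array 2 the mean of the 8 squamous markers was the lowest of SCC, at 11.93, where the other 4 ranged from 14.21 to 14.47. Krt15, a basal keratin among them, went the other way, at 12.26 against 10.55 to 11.24. On the same array the mean of the 6 endothelial markers was the highest, at 12.45, where the other 4 ranged from 11.35 to 11.65. Of the endothelial markers 5 of 6 were called lower in SCC, and their mean level was 13.72 to 13.96 on the WT arrays. Neutrophil markers, 3 of 5 tested called higher, averaged 10.64 on SCC array 2, 12.95 to 13.14 on the other SCC arrays and 10.80 to 11.80 on the WT arrays. The 6 macrophage markers, 1 called higher, averaged 12.61 on SCC array 2, 13.42 to 13.56 on the other SCC arrays and 12.60 to 13.18 on the WT arrays. Of these markers 4 had a positive difference, while Csf1r and Marco gave −0.50 and −0.75, under 2-fold. For Marco, SCC array 2 was not the lowest SCC array. The part of these cell types in the results above was not tested. T cell markers, 4 of 6 called lower, ranged from 8.43 to 9.16 in WT and from 7.41 to 7.87 in SCC. B cell markers, 4 of 4 tested called lower, ranged from 9.75 to 10.44 in WT and from 7.82 to 8.35 in SCC. Alveolar type 1 markers (3 of 4 tested lower), fibroblast markers (3 of 6 lower) and alveolar type 2 markers (0 of 6 called, 4 lower by the adjusted p) were not called higher. Their mean levels in WT and SCC were 15.68 to 15.89 and 14.25 to 14.62, 13.46 to 13.71 and 12.56 to 13.42, and 15.30 to 15.40 and 14.56 to 15.24, in that order. On SCC array 2 these means were 14.61, 13.42 and 15.24. The other SCC arrays reached at most 14.62, 13.23 and 14.77. Aqp5, a type 1 marker, rose by 0.64, and Col1a1 and Col3a1, fibroblast markers, by 0.66 and 0.53, all under 2-fold. Sftpc, a type 2 marker, read 18.80 on all WT arrays and on SCC arrays 1 and 2.

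The slides leave fewer arrays for a comparison within a batch. On slide 2, the only slide that held both groups, all 3 SCC arrays exceeded the WT array for 28 of the 38 genes, which held for 34.0% of all genes tested. The call rests partly on the same arrays, and all 21 called genes were among the 28. With slide as a fixed term in limma the median difference was 1.08, as without it, and 36 genes had a positive difference, while 10 genes were called in place of 21. Over all genes tested, 5.24% were called higher with the term. That difference rests on the single WT array of slide 2. The 10 were Gins2, Rfc5, Fen1, Tk1, Tyms, Exo1, Brca1 and Chek1, which were called without the term too, with Rfc3 and Rfc4. The other 13 called genes lost the call. A further, dimmer probe existed for 7 of the genes, and 5 of these probes were called higher. The dimmer probes of Pold1 and Brca2 were not called, like the brighter ones. The dimmer Brca1 probe fell short of the background criterion on the 5 WT arrays, so its rise is given as at least 1.5-fold. Such a bound sets the mean of the SCC arrays against the lowest signal that passes the criterion on each WT array, or the dim probe's own where that is higher.

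Further genes of the same processes were mostly not called. Of 47 further replication and nucleotide genes tested, 9 were called higher (19.1%) and 1 lower, with a median difference of 0.23, beside 11.6% and 13.4% of all genes. With normexp 4 were called higher (8.4% of all genes), and with slide as a fixed term 4 (5.24% of all genes). Clspn, 1 of the 9, had a WT signal well above background on only 1 of the 5 arrays. Dctd, the dCMP deaminase, was short of the background criterion on the 5 WT arrays and was at least 6.19-fold higher in SCC (limma adjusted p on the measured values = 8.7e-05). Ticrr, which helps Cdc45 onto origins, read 4.02 to 4.41 in WT and 5.65 to 7.51 in SCC, a rise of 2.80 ± 0.32 on the measured values, with a WT signal well above background on only 1 of the 5 arrays. Rrm2b, the p53-induced small subunit of ribonucleotide reductase, fell by 1.24 on the log2 scale, reading 8.78 to 8.997 in WT and 7.26 to 8.28 in SCC. Dguok, a mitochondrial deoxynucleoside kinase, differed by −0.66 ± 0.08 and was under 2-fold. Whether the 19.1% differs from the share among the 38 genes was not tested.

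Recombination genes were mostly not called. Of 29 tested, 8 were called higher (27.6%) and 0 lower, with a median difference of 0.27, beside 11.6% and 13.4% of all genes tested. With normexp 3 were called higher (8.4% of all genes), and with slide as a fixed term 2 (5.24% of all genes). Rad54b, a DNA translocase of homologous recombination, read 6.20 to 7.30 in WT and 7.37 to 8.94 in SCC, and rose by 1.92 ± 0.33. Fancb, of the Fanconi core complex, and Rad50, of the complex that senses breaks, gave −0.78 and −0.66, both under 2-fold. Among 37 genes of excision, mismatch and end-joining repair, 3 were called higher (8.11%), 0 lower, and the median was 0.05. That share is near the 11.6% of all genes tested. Ung and Tdg, glycosylases that remove uracil and thymine mispairs, rose by 1.62 and 1.22. Xpc, which recognises bulky lesions, and Mutyh, an adenine glycosylase, gave −0.93 and −0.66, under 2-fold.

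Regulators of S phase genes were mostly not called. Of 19 E2F and Rb family genes, 4 were called higher (21.1%) and 1 lower, with a median of 0.13, beside 11.6% and 13.4% of all genes. With slide as a fixed term 2 were called higher (5.24% of all genes). E2f8, an atypical E2F that represses, read 5.63 to 6.55 in WT and 7.44 to 8.99 in SCC and rose by 2.18 ± 0.30. Foxm1, a factor of late cell cycle genes, rose by 2.12 ± 0.30. Lin52, a subunit of the complex that joins Rb family proteins to DNA, fell by 1.29 on the log2 scale, and Rbl2, the p130 protein of resting cells, gave −0.81, under 2-fold. Mitosis genes were nearly all called. Of 29 tested, 27 were called higher (93.1%), 0 lower, and the median difference was 2.45. Ttk, a spindle checkpoint kinase, was short of the background criterion on the 5 WT arrays and was at least 5.28-fold higher in SCC (limma adjusted p on the measured values = 0.000346). Ccnb1, cyclin B1, read 4.85 to 6.24 in WT and 7.89 to 9.84 in SCC, a rise of 3.72 ± 0.38. Bub1 and Pttg1, a checkpoint kinase and securin, gave the smallest differences, 0.15 and 0.44, and were not called. Without SCC array 2, the lists had 10 replication and nucleotide, 8 recombination, 3 excision and mismatch, 4 E2F and Rb and 27 mitosis genes called higher, with medians of 0.25, 0.27, 0.04, 0.15 and 2.73 in that order. Called lower without it were Rrm2b, Lin52, Xpc (−1.07) and Rbl2 (−1.04), of which the last 2 were under 2-fold with all arrays.

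**Figure D4:**
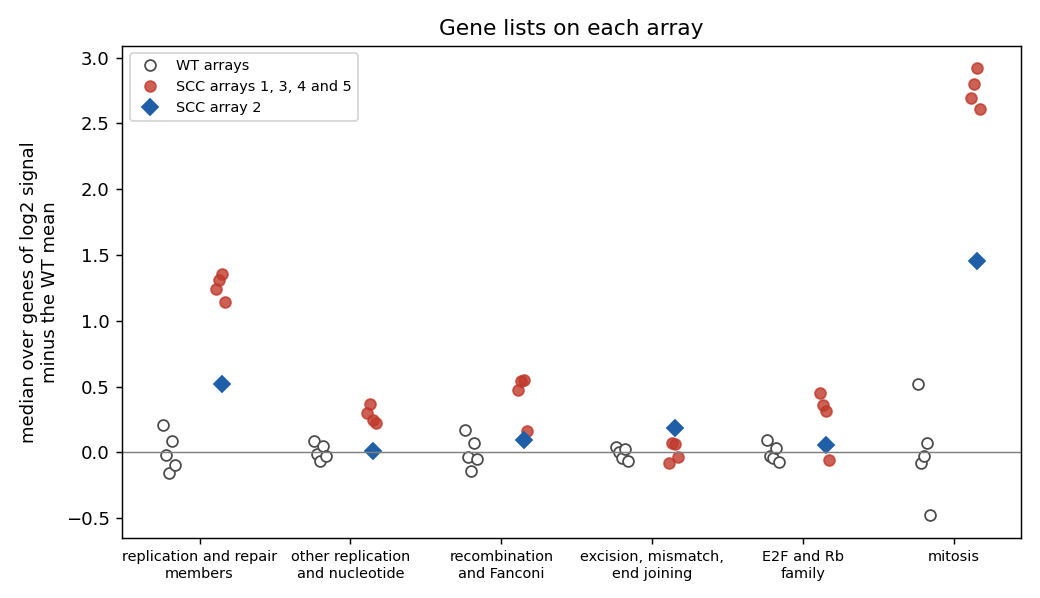
For each array, the median over a list's genes of log2 signal minus the WT mean (y axis), for the 38 replication and repair genes and 5 further lists (x axis). On SCC array 2 the median was 0.52 for the 38 genes and 1.45 for mitosis genes, and the other 4 SCC arrays ranged from 1.14 to 1.36 and from 2.61 to 2.92.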

How the data were processed

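RNA of 5 WT lungs and 5 SCC lung tumours was hybridised by the authors to Agilent Whole Mouse Genome 4x44K one-colour arrays, and each array was read with Feature Extraction (version 12, per the file headers). The deposited scanner files hold intensity values per spot, of which the processed signal was used. The authors deposited a matrix on the log2 scale after quantile normalization, which correlated with the values used here at 0.9999 or more on every array. The methods name OmicSoft Array Studio for processing and Partek for quantile normalization and log2 transformation, and do not say which of them wrote the matrix.

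Control and outlier spots were left out, spots of a probe averaged, and log2 processed signals quantile-normalized in R 4.3.3 (limma 3.58.1). Probes well above background on at least 4 of the 5 arrays of a group were tested (30374 of 41174 probes). limma compared SCC with WT without covariates, two-sided, with Benjamini-Hochberg adjustment over all tested probes. Gene names came from matching the accession in the scanner files to RefSeq symbols (28223 probes, 68.5%, matched 1 gene), and each gene is shown by its brightest probe over the 10 matrix columns. The step was tested on simulated data. No array was saturated, no 2 arrays of a group held the same values (the smallest SD between such arrays was 0.23, against at most 0.17 between repeated spots of 185 probes), and 113 probes had a missing value. The number of arrays limits the precision.

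The methods describe the replicates as biological. The numbers of the replicates do not pair the samples. Alternatives covered scaling, background correction, the filter, slide, replicate number, array weights, left-out arrays and the methods' t-test. Genes named with values on every array were the 2 with the largest and the 1 with the smallest difference by size in each role and every gene not called. Of each further list the 2 highest and 2 lowest genes were named, with differences or ranges. The values of 1 gene that this rule names are not reported here. The members, lists and tests were chosen with earlier results of these data known.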

Additional observations from a re-analysis of the deposited data

Results flagged for a closer look

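In groups of 5 arrays, the gap between the lowest or highest array and its nearest neighbour was divided by the range, and a value over 0.71 marked an array far from the rest. Of 118 groups examined, 29 exceeded it, where chance gives about 1 in 20, and genes on the same arrays are not independent. In 27 SCC array 2 was low, in 1 it was high and in 1 WT array 5 was low.

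For single genes, SCC array 2 was low in Mcm5 (0.805), Mcm6 (0.829), Mcm2 (0.844), Cdt1 (0.896), Mcm7 (0.822), Mcm3 (0.758), Mcm4 (0.884), Mcm10 (0.777), Gins1 (0.875) and Pole (0.818). It was low also in Rfc5 (0.834), Rfc4 (0.730), Lig1 (0.849), Pcna (0.761), Tk1 (0.722), Rrm1 (0.755), Exo1 (0.907) and Rpa2 (0.760). For mean levels it was low for the 38 genes (0.742), licensing genes (0.802), helicase activation (0.844), the clamp group (0.833), nucleotide supply (0.764), mitosis genes (0.752), squamous markers (0.898), neutrophil markers (0.923) and macrophage markers (0.843). The endothelial markers were high on it (0.730). Pola1 in WT was low on WT array 5 (0.753), at 8.89 against 9.34 or more on the other WT arrays.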

How the results depend on the processing

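Of the 38 genes, 21 were called higher with 75th percentile scaling, the submitters' matrix, no filter, slide as a random block, the mean over a gene's probes, and the methods' t-test with an unadjusted p below 0.01 or Benjamini-Hochberg. With the replicate block, 21 genes were called, the median difference was 1.08 and no gene's call changed, and same-numbered arrays correlated at −0.10 to 0.01, so the numbers do not pair the samples. Array weights gave 23 genes called, the strict filter 19 and leaving out SCC arrays 2 and 5 gave 23. Leaving out 1 array gave 19 to 23. With normexp 17 genes were called, with Orc1, Cdc6, Cdc45 and Fancd2 lost. Of the further lists 4 replication genes and 3 recombination genes were then called, beside 8.4% of all genes tested. With slide as a fixed block, 10 of the 38 genes, 4 further replication genes, 2 recombination genes and 2 E2F and Rb genes were called, beside 5.24% of all genes tested. By adjusted p alone 1 gene, Orc6, was lower, and 17 further replication genes were higher and 6 lower, 12 recombination genes higher and 4 lower, 12 excision and mismatch genes higher and 10 lower, and 8 E2F and Rb genes higher and 6 lower, where 25.5% of all genes tested were higher and 28.4% lower. Orc6 differed by −0.39 with slide as a fixed block and −0.16 with array weights. The difference of Rad51ap1 was 0.074 with 75th percentile scaling, 0.094 with slide as a fixed block, 0.21 with array weights, 0.22 without SCC arrays 2 and 5, and −0.12 to 0.17 with 1 array left out. The cause was not tested. With 8 genes, Gins2, Rfc5, Fen1, Tk1, Tyms, Exo1, Brca1 and Chek1, the call held in each of the 24 alternatives run. Signal over background limits Fancd2 and Orc1 in WT.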
